A study of Homo sapiens with 6 samples.

Results

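Complement is a set of blood proteins that mark cells and microbes for removal, together with the membrane proteins that keep it off the body's own cells. The 9 genes followed here are C1R and C1S (the proteases that start the classical pathway), SERPING1 (their inhibitor), C3 (the central component), CFB (a protease of the alternative pathway), CFI (a protease that destroys active C3b and C4b), CD46, CD55 and CD59 (membrane regulators). The members were taken by name, as every probe set whose annotation gives exactly 1 of these symbols, which found 9 of 18265 genes and 37 of 49293 probe sets. Each member has between 1 and 12 probe sets, a probe set being a group of short array probes read as 1 value.

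The arrays measured A549 cells, an established human line from a lung adenocarcinoma. All cells had received a lentivirus with a short hairpin RNA. The 3 arrays labelled shTIGD1 come from cells with a hairpin against TIGD1, a gene derived from a transposase, and the 3 labelled shControl from cells with a hairpin of control sequence. The targets of both hairpins, shown because they alone separate the groups in the labels, were:
shTIGD1: ctgctaacacaacatccat
shControl: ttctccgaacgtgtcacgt
A single hairpin was used against TIGD1, and the labels number replicates without saying that they were separate cultures, so a p-value here covers only the scatter among these 6 samples, and that scatter may be technical.

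C3b, the active fragment of C3, binds covalently to nearby surfaces and recruits CFB, which forms the convertase that cleaves more C3. CD55 breaks up convertases, CD46 is a cofactor with which CFI cuts C3b and C4b, and CD59 stops the final membrane attack complex. Airway epithelial cells are known to make several of these proteins themselves, so their transcripts can be followed in a lung cancer line.

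Values are log2 signals, on which a difference of 1 is a doubling. The array medians lay between 6.27 and 6.28, and 1 probe set per gene, the brightest over all arrays, represented a gene unless stated otherwise. TIGD1, with 1 probe set, gave 6.96, 6.93 and 6.85 in shControl against 6.88, 6.84 and 6.86 in shTIGD1, which overlap. It did not pass as lower (log2 difference -0.06, SE 0.04, limma adjusted p = 0.389, and above 0 under the control scalings described at the end), so every direction is that of the labels. A549 is known to have lost CDKN2A by deletion, yet all 3 CDKN2A probe sets rose in the arrays labelled shTIGD1. The one that represents the gene went from 5.66 ± 0.09 to 6.22 ± 0.13, another from 4.64 ± 0.31 to 5.23 ± 0.03, and the third from 3.93 ± 0.15 to 7.35 ± 0.12 (SD, n = 3 each). The part of this signal in the results was not tested. The epithelial and A549 markers KRT8, KRT18, NQO1 and others were present as labelled, with 0 of 15 below a log2 signal of 5 in both groups. Of these 15 markers 3 rose, EPCAM by 0.87, CDH1 by 0.66 and GPX2 by 0.21 (log2, limma adjusted p of 0.00672 or less), and 0 fell; the part of these rises in the results was not tested. Signals under 5 are called near background here, although the 23 antigenomic background probe sets ran from 2.57 to 10.9 with their base composition, so no single level separates signal from background.

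Transcripts of the complement regulators CFI and CD46 were higher in the arrays labelled shTIGD1, C1R and C1S were higher by less, and C3 was lower. By the brightest probe set 4 of the 9 members rose and 1 fell, while 9.79% of all genes rose and 14.0% fell (limma, Benjamini-Hochberg adjusted p below 0.05 over 18265 genes). The median log2 change was 0.09 over the members and -0.04 over all genes. For 6 of the 9 the groups had no overlapping values, against 42.3% of all genes. Over probe sets, 24 of the 37 rose and 2 fell, where 11.5% and 10.6% of all probe sets did so, but 12 of the 24 belong to CD46 and share its transcripts. The groups had no overlap in 30 of the 37, against 40.9% of all probe sets.

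**Figure D1:**
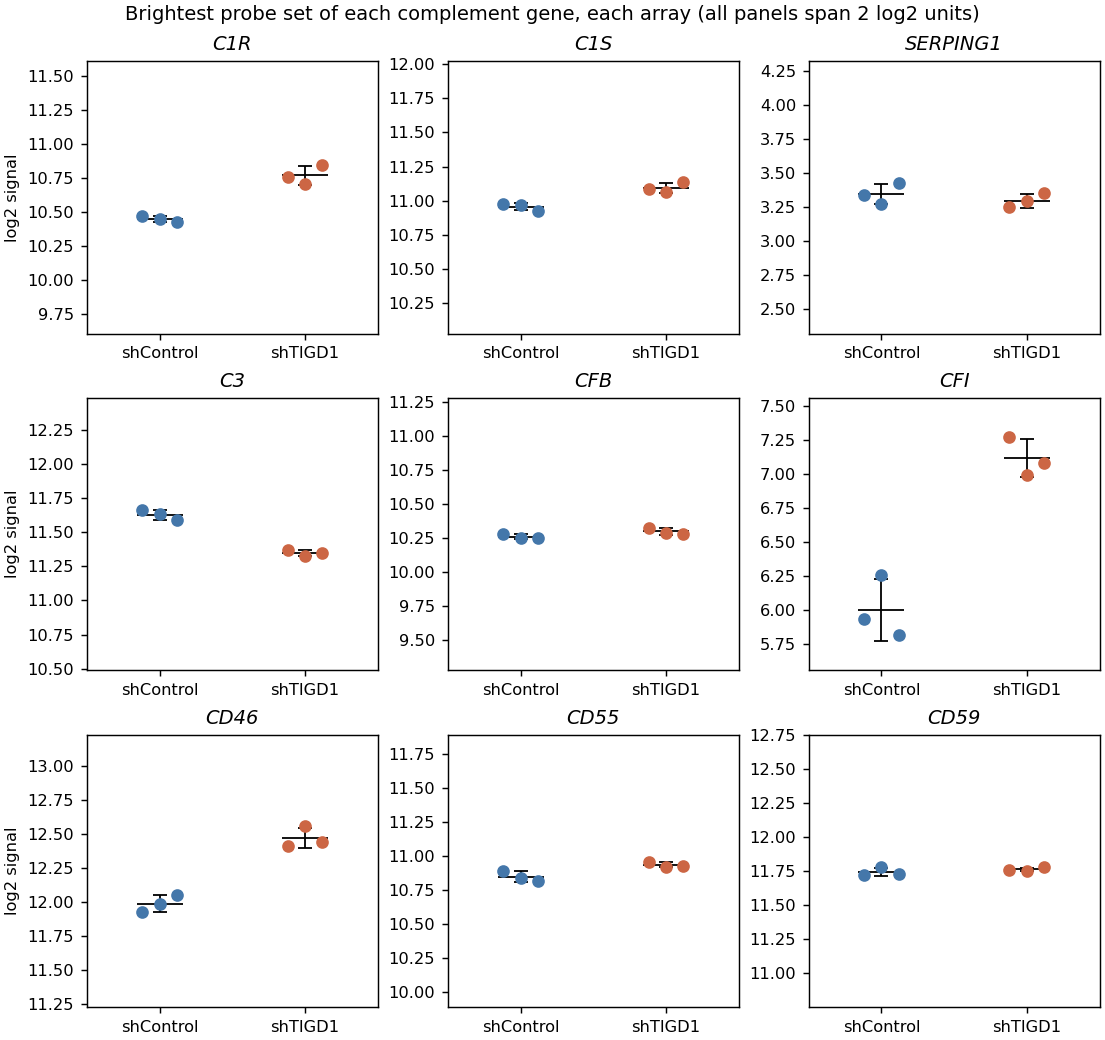
Log2 signal (vertical axis) of the brightest probe set of each member on each array, shControl in blue and shTIGD1 in orange, with the mean and SD of 3 arrays in black. Every panel spans 2 log2 units, so that the separation of CFI and CD46 can be set against the overlap of CFB, CD59 and SERPING1.

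Among the classical pathway proteases, C1R showed the larger rise. Its brightest probe set gave 10.47, 10.45 and 10.42 in shControl against 10.76, 10.71 and 10.84 in shTIGD1. All shTIGD1 values lay above all shControl values. The rise was 1.25-fold (log2 change 0.32 with an SE of 0.04, limma, adjusted p = 0.00439, 3 arrays a group). The other C1R probe sets rose by 0.29 and 0.35, so that all 3 passed.

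C1S, the protease that C1R activates, has 1 probe set, which read 10.97, 10.97 and 10.92 in shControl and 11.09, 11.06 and 11.13 in shTIGD1. The groups were separate, but by a small margin. The rise of 10.2% (log2 change 0.14 with an SE of 0.04, limma, adjusted p = 0.0352) ended as a call when any 1 of the 6 arrays was left out (adjusted p between 0.0563 and 0.108). It also ended with the replicate number as a block (limma adjusted p = 0.114) and after repeated quantile normalization (limma adjusted p = 0.0576). The log2 change of C1R exceeded that of C1S by 0.18, and the within-array difference did not overlap between groups (exact permutation test, two-sided, p = 0.1, the smallest that 3 against 3 arrays can give).

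SERPING1, which inhibits both proteases, was near background in both groups. Its brightest probe set read 3.34, 3.27 and 3.42 in shControl and 3.25, 3.29 and 3.35 in shTIGD1, and the groups overlapped. The other probe set, at 3.41 ± 0.21 and 3.11 ± 0.08 (SD, n = 3 each), did not pass either (limma adjusted p = 0.0867).

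C3, the central component, was the only member lower by its brightest probe set. It read 11.66, 11.63 and 11.59 in shControl and 11.37, 11.33 and 11.35 in shTIGD1. The groups were separate, with a change of -17.6% (95% interval -22.3% to -12.5%, log2 change -0.28 with an SE of 0.04, limma, adjusted p = 0.00351). C3 has no second probe set to compare. The fall passed without each array in turn (adjusted p between 0.0106 and 0.0178), but it depended on the scaling of the arrays, as given further on.

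CFB, which binds C3b, gave different answers by probe set. Its brightest probe set read 10.28, 10.25 and 10.25 in shControl and 10.33, 10.29 and 10.28 in shTIGD1, which overlap (log2 difference 0.04, SE 0.03, limma adjusted p = 0.460, 95% interval of the change -2.86% to 8.51%). The next one read 8.97, 8.95 and 8.97 against 9.21, 9.20 and 9.15, with no overlap. That probe set rose by 0.23 (SE 0.04) and another by 0.25 (SE 0.05), with limma adjusted p = 0.00733 and 0.0156 over all probe sets. The fourth probe set was near background (4.80 ± 0.11 and 4.76 ± 0.26; SD, n = 3 each). The change of the 2 probe sets that rose exceeded that of the brightest by 0.19 and 0.21, without overlap of the groups (exact permutation p = 0.1 each, 0.187 after adjustment over the 28 pairs of probe sets compared). The log2 change of CFB by its brightest probe set exceeded that of C3 by 0.32 (exact permutation p = 0.1, groups separate).

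CFI had the largest change of the members. This protease needs a cofactor such as CD46 to cut C3b. Its brightest probe set read 5.94, 6.26 and 5.82 in shControl and 7.27, 6.996 and 7.09 in shTIGD1, and the second one 5.65, 5.61 and 5.51 against 6.81, 6.82 and 6.82. The groups were separate in both, and the arrays of a group lay closer together in the second. The rises were 2.16-fold (log2 change 1.11, SE 0.13, limma adjusted p = 0.00232) and 2.33-fold (log2 change 1.22, SE 0.05, limma adjusted p = 0.000144 over all probe sets). Among 18265 genes the CFI change ranked 13th from the highest. CFI was the only member that also passed limma's treat test against 1.2-fold by its brightest probe set. The genes with values most like it over the 6 arrays, centred on the shControl mean, were ARSJ, BTF3L4, ALG5, LXN and FAM228B, with root mean square differences between 0.12 and 0.14. These genes rose by 1.06 to 1.18, and with 2 groups the likeness rests mainly on the size of the rise.

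CD46 was higher in every one of its 12 probe sets. The brightest read 11.92, 11.99 and 12.05 in shControl and 12.41, 12.56 and 12.44 in shTIGD1. A rise of 1.40-fold followed from these separate groups (log2 change 0.48 with an SE of 0.05, limma, adjusted p = 0.00242). A dimmer CD46 probe set read 9.22, 9.28 and 9.29 against 10.36, 10.35 and 10.30, a 2.11-fold rise (log2 change 1.07, SE 0.04, limma adjusted p = 0.000144 over all probe sets). The 12 changes thus ran from 0.45 to 1.07 with a median of 0.95, and the highest adjusted p was 0.00248. At least 0.9 was reached by 7 of them, as by 0.229% of all probe sets (a limit chosen after the values were seen).

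The brightest CD46 probe set therefore gave the second smallest of the 12 changes. Against it, the change of 10 other probe sets was larger by 0.08 to 0.59 with no overlap of the within-array differences (exact permutation p = 0.1 each, 0.187 adjusted over 28 pairs). The eleventh differed by -0.03 (exact permutation p = 0.7). In the treat test against 1.2-fold, 10 CD46 probe sets passed but the brightest did not (adjusted p = 0.144 at gene level). Changes were smaller in the brightest CD46 probe sets, where shControl means of 11.99, 11.51 and 10.98 went with changes of 0.48, 0.45 and 0.57. The CD46 probe sets with changes of at least 0.9 all had shControl means of 9.94 or less. The part of brightness in these differences was not tested. CD46 transcripts are known to be spliced in several forms, and which forms each probe set reads was not analysed here. Of the 12, 6 have identifiers ending in x, the maker's mark for probes that may also bind other transcripts.

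**Figure D2:**
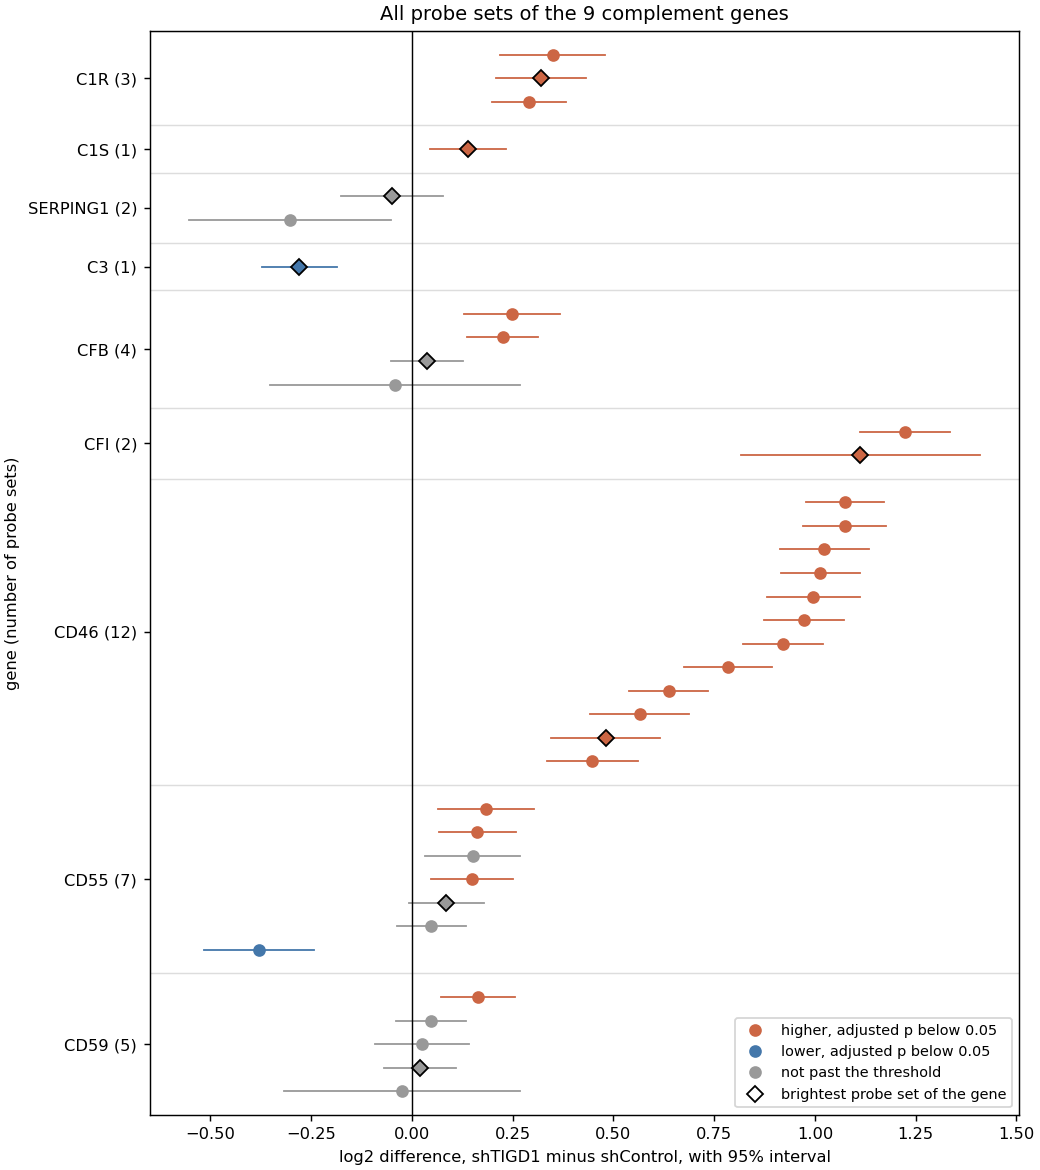
Log2 difference, shTIGD1 minus shControl (horizontal axis), with its 95% interval for all 37 probe sets, grouped by gene with the number of probe sets in brackets. Orange marks a rise and blue a fall at an adjusted p below 0.05, grey neither, and diamonds the brightest probe set; the 12 CD46 and 2 CFI probe sets all lie above 0.4.

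CD55, which lies in the same chromosomal cluster of complement regulators as CD46, differed little. Its brightest probe set read 10.89, 10.84 and 10.82 in shControl and 10.96, 10.92 and 10.93 in shTIGD1. The groups did not overlap, yet the difference missed the threshold (log2 difference 0.09, SE 0.04, limma adjusted p = 0.137, 95% interval of the change -0.03% to 12.7%). Of its 7 probe sets 3 rose, by 0.15 to 0.18, and 1 fell. The one that fell was near background, at 4.76 ± 0.04 and 4.38 ± 0.09 (log2 change -0.38, limma adjusted p = 0.00553; SD, n = 3 each). The log2 change of CD46 exceeded that of CD55 by 0.40 and that of CD59 by 0.46, with no overlap (exact permutation p = 0.1 each, also after adjustment over the 4 pairs of members compared).

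CD59, which like CD55 is held on the membrane by a glycosylphosphatidylinositol (GPI) anchor, did not pass by its brightest probe set. The values were 11.72, 11.78 and 11.73 in shControl and 11.76, 11.75 and 11.78 in shTIGD1, which overlap (log2 difference 0.02, SE 0.03, limma adjusted p = 0.721, 95% interval of the change -4.17% to 7.25%). Of 5 probe sets 1 passed. It read 11.04, 11.06 and 11.03 against 11.19, 11.25 and 11.18, a rise of 12.1% (log2 change 0.16, SE 0.04, limma adjusted p = 0.0255 over all probe sets). Of 28 measured genes that make or attach GPI anchors 7 rose, led by PIGA (0.48), PIGM (0.45) and PIGK (0.32), and 1 fell (DPM2, -0.15, positive under the control scalings), with a median of 0.10, where 9.79% of all genes rose and 14.0% fell.

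Promoter windows, 250 bases before to 50 after a gene's start in RefSeq (GRCh38.p14), were found for CFB, CFI, C1R, CD46, CD55 and CD59. Those of CFI and CD46, the members that rose most, and of CFB, which matched 3 of the motifs searched, are shown, with matches in capitals. CFI lies at chr4:109801950-109802249, minus strand, CD46 at chr1:207751788-207752087, plus strand, and CFB at chr6:31945845-31946144, plus strand.
CFI: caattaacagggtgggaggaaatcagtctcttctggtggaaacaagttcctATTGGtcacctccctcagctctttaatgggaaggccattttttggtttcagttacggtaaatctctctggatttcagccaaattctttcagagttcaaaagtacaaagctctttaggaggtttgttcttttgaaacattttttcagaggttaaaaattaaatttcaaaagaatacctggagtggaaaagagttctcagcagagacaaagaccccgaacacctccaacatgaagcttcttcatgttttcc
CD46: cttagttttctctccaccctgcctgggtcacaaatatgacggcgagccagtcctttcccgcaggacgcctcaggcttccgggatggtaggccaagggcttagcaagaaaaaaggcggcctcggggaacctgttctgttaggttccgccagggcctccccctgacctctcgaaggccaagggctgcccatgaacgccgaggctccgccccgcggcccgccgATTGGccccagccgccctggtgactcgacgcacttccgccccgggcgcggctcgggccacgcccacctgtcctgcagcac
CFB: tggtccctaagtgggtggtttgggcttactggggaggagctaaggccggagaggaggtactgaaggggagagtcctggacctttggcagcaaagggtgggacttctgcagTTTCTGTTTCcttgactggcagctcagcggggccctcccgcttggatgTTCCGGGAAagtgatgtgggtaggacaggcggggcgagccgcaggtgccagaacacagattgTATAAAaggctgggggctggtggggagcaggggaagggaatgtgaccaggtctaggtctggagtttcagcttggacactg
The motifs searched on both strands were TTCNNNGAA (GAS, bound by STAT factors), ISRE (GAAA repeated after any 2 bases, bound by interferon regulatory factors), the NF-kB motif, TATAAA and CCAAT. The CFI and CD46 windows each held CCAAT only, which 34.6% of 35116 promoter windows hold. The CFB window held GAS (in 7.66% of windows), ISRE (3.57%) and TATAAA (11.5%), and these matches did not overlap each other. GAS was also in 1 window of C1R and in 2 overlapping windows of CD59, which share the same site. The NF-kB motif (5.91% of windows) was in none of the 11 windows of the 6 genes. The windows shown differed in base composition, with 39.3% G and C for CFI, 67.0% for CD46 and 59.0% for CFB, where the median of all windows was 58.7%.

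Of 50 other genes of the complement system, 44 were measured, 5 rose and 2 fell (median -0.05), and 26 were near background in both groups. The share that rose is near the 9.79% of all genes, and 14.0% of all genes fell. CPN1, a subunit of the carboxypeptidase that inactivates C3a and C5a, rose by 0.47, C1RL, a relative of C1R beside it on the chromosome, by 0.33, CFD, the protease that cleaves CFB, by 0.28, C5 by 0.26 and C4BPA, a chain of the fluid-phase cofactor of CFI, by 0.20. VSIG4, a complement receptor of macrophages that was near background, fell by 0.48, and ITGAM, a chain of a complement receptor of white blood cells that was also near background, by 0.19 (positive under the control scalings). CPN1 lay close to the limit of 5 in shControl (mean 5.07). When 1 array was left out, CPN1 stayed past the threshold only without shControl replicate 3 (limma adjusted p = 0.0059). With the replicate number as a block CPN1 did not pass (limma adjusted p = 0.066). C4A and C4B had no probe set with that symbol alone. The number that rose was 3 without shTIGD1 replicate 2 or replicate 3, and the number that fell was 0 without shControl replicate 1 or replicate 3 and 1 without shTIGD1 replicate 1 or replicate 2.

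Among cytokines, receptors and factors known to act on complement genes, falls outnumbered rises. Of 27 measured, 3 rose (LIFR, 0.44; IL1R1, 0.29; JAK2, 0.19) and 15 fell (median -0.23), where 9.79% and 14.0% of all genes did so. The falls were led by TNF (-0.93), IL1A (-0.82), IL6 (-0.80), RELB (-0.71), NFKB2 (-0.69) and IL1B (-0.68), while CEBPD, RELA, IFNGR2, JAK1 and OSMR, which also fell, were above 0 under poly-A scaling. Secreted plasma proteins, which like CFI and C3 are made mainly in liver, had 8 rises and 2 falls among 35 (median 0.03), with 18 near background. RBP4 rose by 1.30, FGB by 1.25, FGG by 0.79, CP by 0.67, APOH by 0.51 and FGA by 0.51, and the falls were SAA1 (-0.43, near background) and SERPINA3 (-0.32). The genes named beyond the 6 largest changes of either list were chosen after their values were seen. These lists were drawn up with results of these data known and support nothing by themselves.

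**Figure D3:**
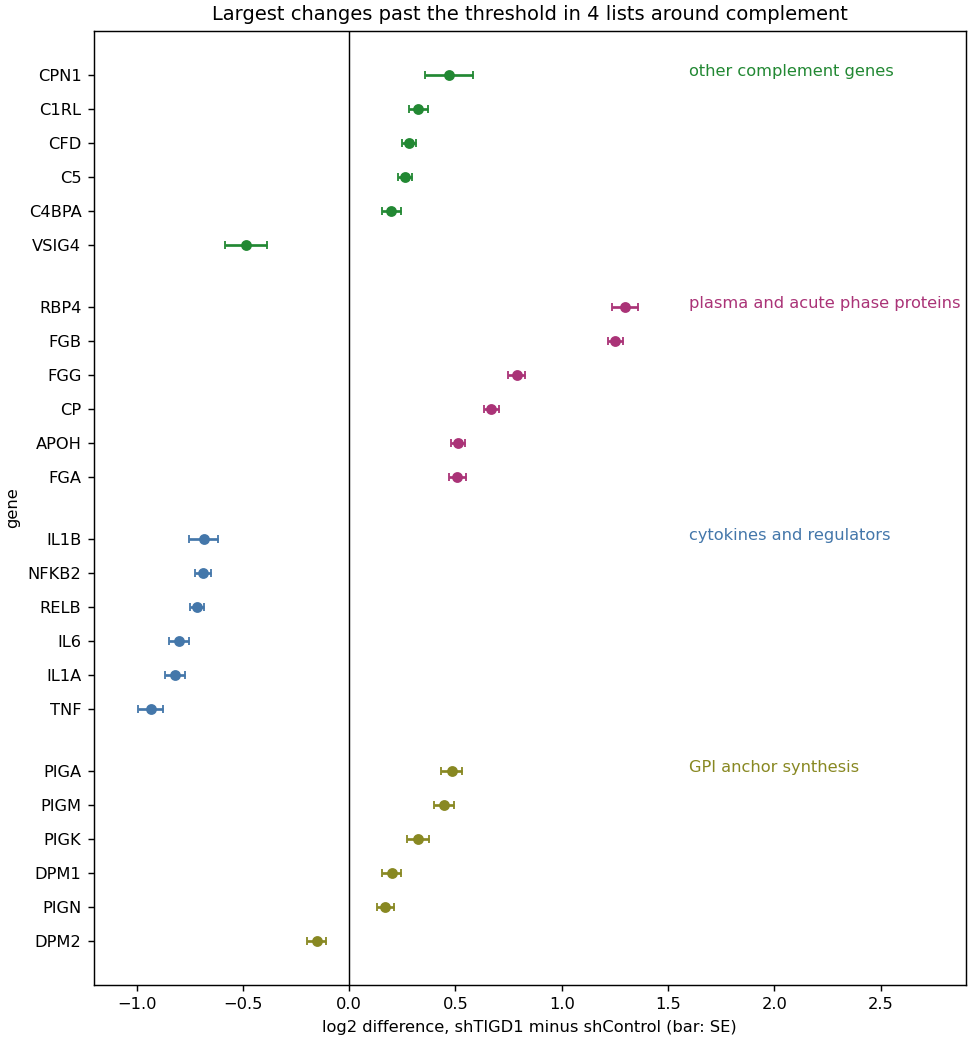
Log2 difference, shTIGD1 minus shControl (horizontal axis), with SE, for up to 6 genes past the threshold with the largest changes in each of 4 lists. The 6 cytokine and regulator genes lie between -0.93 and -0.68 and the 6 plasma protein genes between 0.51 and 1.30.

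Markers of other cell types passed in small numbers, to be read against 9.79% of all genes higher and 14.0% lower. Hepatocyte markers had 1 rise (CPS1, 0.30) and 1 fall (HPD, -0.62) among 14, with 7 near background, and their summed linear signal was 1305 to 1363 in shControl and 1491 to 1574 in shTIGD1. Fibroblasts are a known source of C1R and C1S, and of 12 fibroblast markers 0 rose and 2 fell (COL3A1, -0.56, and FBLN1, -0.20, which turned positive under the control scalings). Of the 12 fibroblast markers 7 were near background, and the sums were 722 to 747 in shControl and 634 to 657 in shTIGD1. Immune markers had 1 fall (ITGAM, positive under the control scalings) among 16, with 9 near background and sums of 931 to 999 and 920 to 967, and endothelial markers 1 rise (ESAM, 0.33) among 11, with 5 near background and sums of 354 to 360 and 339 to 350. Bright genes weigh most in these sums. CPS1 had a mean log2 signal of 9.77 in shControl and 10.07 in shTIGD1, and FBLN1 8.79 and 8.59. The sums therefore do not show a shift across either list. Median log2 changes were 0.05 over the hepatocyte and -0.06 over the fibroblast markers. No value in these data is 0, and the part of the hepatocyte and fibroblast sums in the results was not tested.

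The size of every change rests on how the arrays were levelled. Added hybridization controls read lower in the shTIGD1 arrays, and levelling on them raised every log2 change by 0.22, while levelling on poly-A controls raised it by 0.32. The median of all genes then became 0.18 and 0.29. Under these scalings C3 went from -0.28 to -0.06 (limma adjusted p = 0.183) and 0.04 (adjusted p = 0.632), so that its fall no longer passed and turned in sign under the second. Because both scalings raise every change, they do not test whether a rise holds. Of all 18265 genes, 9293 were then called higher under hybridization and 12444 under poly-A scaling. CFI, CD46, C1R and C1S were among them under both, and CFB, CD55 and CD59 passed as higher as well. SERPING1, near background, also passed as higher (adjusted p = 0.031 and 0.0192). The order of the members by log2 change is the same under all 3 scalings, since each adds the same value to every gene.

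**Figure D4:**
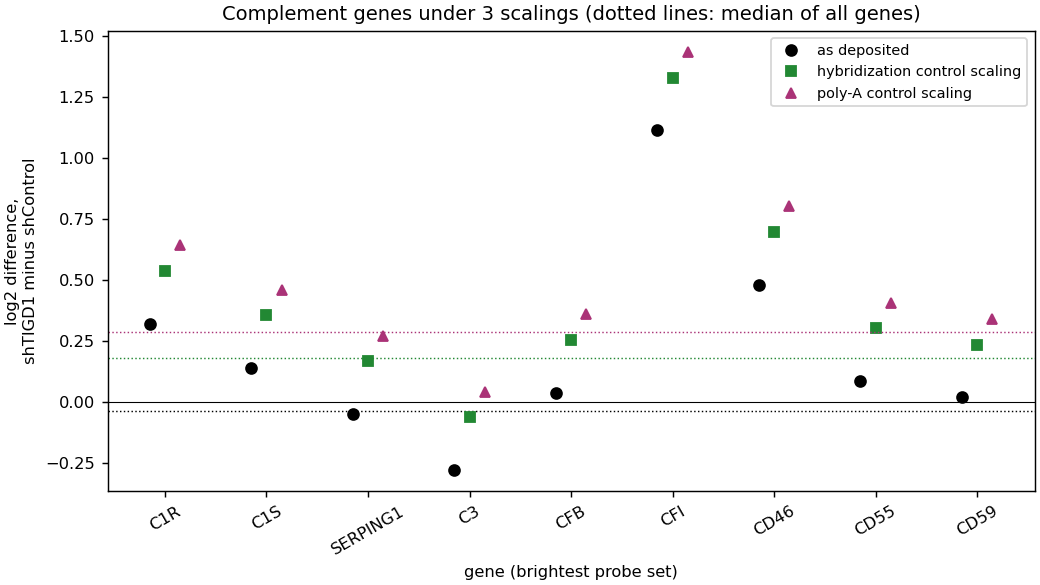
Log2 difference, shTIGD1 minus shControl (vertical axis), of the brightest probe set of each member as deposited (circles) and with arrays levelled on hybridization (squares) or poly-A controls (triangles), with dotted lines at the median of all genes. C3 lies below that median and CFI and CD46 lie above it, at distances that the scalings leave unchanged by construction.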

How the data were processed

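Per the labels' protocols, RNA of 6 A549 samples was amplified from the 3′ end, labelled with biotin and read on Affymetrix arrays of 1 colour. The authors deposited a log2 signal for each probe set. The submitters' processing notes name GCOS and RMA, with versions not given in the sources used here. That the log has base 2 was taken from the range of the values. RMA makes the distributions of arrays alike, so a shift common to most genes is removed before deposit. Batches of arrays were not examined.

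The table holds 49395 probe sets, among them 102 controls. Exactly 1 symbol was given to 45336, several to 1275 and none to 2682. A gene was represented by its brightest probe set (18265 genes), and the 49293 probe sets that are not controls were fitted separately. Tests used limma 3.58.1 (lmFit, eBayes) under R 4.3.3, 3 arrays against 3, two-sided, Benjamini-Hochberg adjusted over each table, at 0.05. Tables used Python 3.11.15 and pandas 2.3.3. On simulated data over 49293 probe sets 12% of changes of 1.2-fold, 80% of 1.5-fold and 100% of 2-fold were recovered. In the simulation 50 probe sets were changed at each fold, and 9 of 155 calls were false. In the real data 11.5% of probe sets rose and 10.6% fell, which makes the adjusted threshold less strict. The simulated shares therefore do not give the sensitivity of the real comparison. The number of arrays limits the precision. No array was a copy of another (at most 184 probe sets equal).

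Members, lists, tests and named genes (all members, TIGD1, CDKN2A and CDKN2B, up to 6 genes past the threshold per list, and the 5 genes most like the member with the largest change) were chosen with earlier results of these data known.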

Additional observations from a re-analysis of the deposited data

How the results depend on the processing

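Relative to the counts as deposited (members 4 higher and 1 lower by gene, 24 and 2 by probe set), levelling on hybridization controls gave 8 and 0 members, 1 lower member probe set, 21 and 0 other complement genes, and 9293 and 375 of all genes. Levelling on poly-A controls gave 8 and 0 members, 0 lower member probe sets, 32 and 0 other complement genes, and 12444 and 97 of all genes. The treat test against 1.2-fold left 1 and 0 members (CFI), 12 and 0 member probe sets (10 of CD46, 2 of CFI), 0 and 0 other complement genes, and 175 and 87 of all genes. Without probe sets ending in _x_at, which 12 of the 37 member probe sets do, 14 member probe sets were higher, with fewer tested. The share of all probe sets under this setting was not counted. Using the second brightest probe set, 6 members were higher and 1 lower, with 1803 of all genes higher and 1744 lower. CFB, CD55 and CD59 then passed as higher, and C1S did not. With limma's trend and robust options 5 members were higher, CD55 among them (limma adjusted p = 0.0184). Calls over all genes also grew, to 2441 higher and 3365 lower. After repeated quantile normalization 3 members were higher, and C1S did not pass (limma adjusted p = 0.0576). Of all genes 1770 were then higher and 2799 lower. Among features with a signal of at least 5, 1 member probe set and 0 other complement genes were lower, with 3056 of the genes kept lower. With the mean of all probe sets 0 other complement genes were lower, with 2497 of all genes lower.

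Samples with the same replicate number did not deviate together (correlations of -0.03, -0.13 and -0.09 across genes). No sample correlated best with its own number. These values give no sign that the numbers pair the samples, but cannot exclude it. With the replicate block, 1095 genes were higher and 1293 lower, 1 other complement gene was lower, and members were 3 higher and 1 lower.

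Leaving out 1 array gave 3 higher and 1 lower members each time, 19 to 20 higher and 2 to 3 lower member probe sets, 3 to 5 higher and 0 to 2 lower other complement genes, and 1176 to 1474 higher and 1566 to 1915 lower of all genes. Signs turned under hybridization and poly-A scaling respectively for SERPING1 (0.17 and 0.27), TIGD1 (0.16 and 0.27), CDKN2B (0.10 and 0.20), DPM2 (0.063 and 0.17), ITGAM (0.028 and 0.13), FBLN1 (0.015 and 0.12), the dim CFB probe set (0.17 and 0.28) and the dimmest CD59 probe set (0.19 and 0.30), and under poly-A scaling for C3 (0.042) and the other SERPING1 probe set (0.019). CDKN2B also turned with the mean (0.17) and the second brightest (0.42) of its probe sets and ESAM with the second brightest (-0.087). Without 1 array the dim CFB probe set ranged from -0.16 to 0.093, the dimmest CD59 probe set from -0.16 to 0.0805 and the next one from -0.014 to 0.058. The dimmest also turned after repeated quantile normalization (0.0050). The causes were not tested.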

Other observations

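Genes next to the members on the chromosome, 3 measured genes on either side, were looked at after the values were seen. Around CD46, 0 of 6 neighbours passed in either direction (CR2, CR1, CR1L, CD34, PLXNA2 and MIR205HG, with log2 differences of -0.15 to -0.07). CR2, CR1, CR1L and MIR205HG were near background in both groups, and CD34 was little above it (means 5.33 in shControl and 5.20 in shTIGD1). Values near background cannot show whether the rise of CD46 was shared by its neighbours. Around CFI 1 of 6 rose (CASP6, 0.46) and 0 fell, with RRH and LRIT3 near background. Around C3 0 rose and 3 fell (TRIP10, -0.44; TNFSF14, -0.42; CD70, -0.19). Around C1R and C1S, which lie close together, LPCAT3 (0.25) and C1RL (0.33) rose and C1RL-AS1 (-0.19) fell. Around CD59, 4 of 6 rose (CAPRIN1, 0.42; HIPK3, 0.29; FBXO3, 0.26; CSTF3, 0.16). Around SERPING1, 0 of 6 passed, with SMTNL1 and YPEL4 near background. Over all members, 9 of 45 such neighbours rose and 6 fell, where 9.79% of all genes rose and 14.0% fell.

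A probe set annotated to both EMG1 and C1S, not counted as a member, was near background at 3.94 ± 0.10 and 3.83 ± 0.30 (SD, n = 3 each). The 3 probe sets that name both C4A and C4B differed by 0.01, 0.07 and 0.21 and did not pass (limma adjusted p of at least 0.115).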
